A study of Mus musculus with 2 samples.

Results

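The transcripts described here are those of Traf1 and of 9 other genes of the NF-kB pathway in B cells sorted from the mouse heart. They comprise the subunits Nfkb1, Rel, Nfkb2 and Relb, the feedback inhibitors Nfkbia, Nfkbie, Nfkbiz and Tnfaip3, and the targets Birc3 and Traf1, 10 of the 31053 genes in the count tables. The list was chosen by the ratio of Traf1 between the libraries, which was high in an earlier look at the same data, so that ratio is given here as a description. Their levels were measured over droplets with at least 2000 gene UMIs (unique molecular identifiers, each standing for 1 captured transcript), at most 10% of UMIs from mitochondrial genes and at least 1 UMI of Cd79a, which encodes a chain of the B cell receptor complex. This left 2077 of 2507 droplets with at least 2000 UMIs in the neonatal library and 3611 of 4120 in the adult library.

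The study sequenced RNA from single B cells of neonatal and adult hearts to describe how this population differs between the ages. The neonatal library came from wild type C57BL6/J mice of 2 weeks, given as 15 days in the sample title, with males and females pooled, and the adult library from wild type C57BL6/J males of 8 weeks. Each library pooled 6 mice. Hearts of both ages were digested by the same protocol, and viable B cells were sorted by flow cytometry on the same day. With 1 library per age there was no replicate, so no difference between the ages could be tested. Age, pool of mice and library preparation cannot be told apart, and the sex make-up differed as well. All intervals are exact 95% intervals and cover counting error only.

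NF-kB is a family of transcription factors that form dimers of Rel-related subunits. In resting B cells inhibitors of the IkB family hold the dimers in the cytoplasm, and signals from the B cell receptor, CD40, the receptor for BAFF or Toll-like receptors release them through kinases that lead to degradation of the inhibitor. The dimers then drive genes for survival, adhesion and costimulation, and also genes for their own inhibitors, so that transcripts such as Nfkbia and Tnfaip3 commonly serve as readouts of recent pathway activity. TRAF1, an adaptor that binds TRAF2 and the cellular IAP proteins below TNF family receptors, is itself encoded by a known NF-kB target gene.

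The stretch of 250 bases before the RefSeq start site is shown for 3 genes that differed in their ratio. These were Traf1, with the highest ratio of the 10, Nfkbia, with the lowest, and Tnfaip3, with a ratio near 0. In GENCODE M21 the Tnfaip3 gene reaches to chr10:19015657. Nearly all of its stretch, with both marked matches, therefore lies inside the GENCODE span of the gene. The sequences are those of RefSeq on GRCm38.p6, read 5′ to 3′ on the strand of the gene, and capitals mark matches to the kappaB consensus on either strand.
Traf1 (chr2:34961773-34962022, minus strand): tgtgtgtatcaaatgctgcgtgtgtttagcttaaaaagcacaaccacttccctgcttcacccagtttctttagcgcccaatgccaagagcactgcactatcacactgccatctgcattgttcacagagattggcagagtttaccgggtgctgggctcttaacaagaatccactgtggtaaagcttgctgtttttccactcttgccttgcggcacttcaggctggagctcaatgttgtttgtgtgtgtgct
Nfkbia (chr12:55492648-55492897, minus strand): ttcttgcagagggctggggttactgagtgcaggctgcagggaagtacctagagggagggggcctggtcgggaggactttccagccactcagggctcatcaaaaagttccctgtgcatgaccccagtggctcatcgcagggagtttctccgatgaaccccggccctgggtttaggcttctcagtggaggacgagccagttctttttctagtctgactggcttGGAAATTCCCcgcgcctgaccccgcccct
Tnfaip3 (chr10:19015411-19015660, minus strand): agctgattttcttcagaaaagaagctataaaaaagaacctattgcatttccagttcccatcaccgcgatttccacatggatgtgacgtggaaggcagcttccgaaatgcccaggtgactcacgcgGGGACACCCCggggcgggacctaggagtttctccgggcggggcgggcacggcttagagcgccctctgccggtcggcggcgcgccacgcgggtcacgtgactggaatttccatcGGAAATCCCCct
The promoter windows searched ran from 250 bases before to 50 bases after each RefSeq start site, and 7 of the 10 genes had a window. The Nfkb2 windows, the first from chr19:46304487, also began inside its GENCODE M21 span, which starts at 46304320. The kappaB consensus matched on either strand in a window of 5 of these, Nfkbia, Nfkbie, Tnfaip3, Nfkb2 and Rel, and in none for Traf1 and Birc3. In the Nfkbia window the match began 29 bases before the start site. Matches on opposite strands and overlapping matches were counted as 1 stretch, which left 2 stretches in the Tnfaip3 window shown. Of 27025 genes with windows of the same length, 9.55% had a match in at least 1 window. These matches describe the letters in the windows and were not tied to any level.

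The files held 26866958 gene UMIs in the neonatal library against 49500780 in the adult one, and the cells used here held 16403180 and 34623240. The median cell had 6000 UMIs in the neonatal library against 6131 in the adult one. The 5th percentile was 3946 and 3283 UMIs and the 95th percentile 18040 and 26885, so the adult cells spread more widely in depth. The libraries shared 110 barcodes with at least 500 UMIs in both, of which 2 were cells of both libraries. Of the B cell markers, Cd79b was at 1800 CPM (UMIs per 1000000 gene UMIs of the cells used) among neonatal and 1263 CPM among adult cells, and Ms4a1 at 1347 and 1154 CPM. Markers of macrophages summed to 92.1 and 17.1 CPM, of neutrophils to 25.1 CPM and 0, with all 4 at 0 in the adult library, and of endothelium to 139 and 117 CPM. The endothelial sum was nearly all Pecam1, at 137 and 116 CPM. Cdh5, Kdr, Fabp4 and Cldn5 were each at most 2.44 CPM in either library. Markers of T cells, NK cells, red cells, cardiomyocytes, fibroblasts and platelets summed to between 0.18 and 9.07 CPM in either library. The antibody rows for surface proteins held 3 and 2 UMIs and gave no information.

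Traf1 was at 24.4 CPM in the neonatal and 107 CPM in the adult cells, while the other NF-kB genes did not share this difference. The 9 other genes had log2 ratios, adult over neonatal, between -0.67 and 0.00 with a median of -0.19, against a median of -0.13 over 10703 genes with at least 50 UMIs. Their summed level was 1537 CPM in the neonatal and 1284 CPM in the adult cells. Of the 10 genes, 1 was at least 2-fold higher in the adult library, as were 3.25% of all genes, and 0 were at least 2-fold higher in the neonatal library, as were 3.96%. These counts depend on the mitochondrial limit. At most 5%, which left 60 neonatal and 156 adult cells, gave 0 genes higher in the adult and 4 higher in the neonatal cells. Traf1 was then at a log2 ratio of 0.96. The shares of all genes were not computed for these few cells, and 3.25% and 3.96% do not apply to them. At 1.5-fold, Traf1 was again the 1 gene higher in the adult library, against 7.82% of all genes, and Nfkbia the 1 gene higher in the neonatal library, against 12.2%. Intervals lay below 0 for 7 of the 9 other genes and spanned 0 for Nfkb2 and Tnfaip3. An interval below 0 was common, at 42.3% of all genes and 53.8% of the 5104 genes with at least 1000 UMIs, and intervals above 0 made up 18.1% and 19.9%. Scaling by the median of ratios moved the median of all genes from -0.13 to 0.02, and relative to the median of all genes Traf1 was 2.27 and Nfkbia -0.54.

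**Figure D1:**
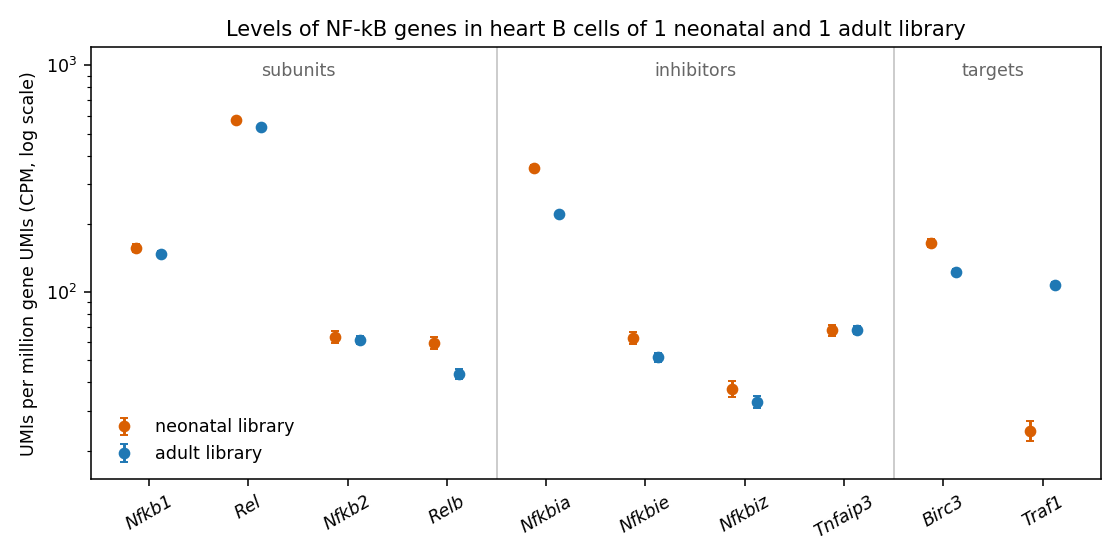
Level of each of the 10 genes in CPM (log scale) over the cells of the neonatal (orange) and the adult (blue) library, ordered by role; bars are exact 95% Poisson intervals and cover counting error only. Traf1 lies at 24.4 CPM in the neonatal library against 107 CPM in the adult one, and no other gene is separated as far.

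Traf1 (ENSMUSG00000026875, chr2:34941750-34961772 on the minus strand of GRCm38, GENCODE M21) was counted 400 times among the neonatal and 3717 times among the adult cells. Its log2 ratio was 2.14 (1.99 to 2.29), a 4.402-fold higher level in the adult library, and rank 73 from the highest among the genes tested. In cells with a Y-linked and no Xist UMI, 1279 neonatal and 2819 adult cells, the log2 ratio was 1.98. With each cell thinned to 2000 UMIs, 52 neonatal cells (2.504%, 1.88 to 3.27%) and 463 adult cells (12.8%, 11.7 to 14.0%) held a Traf1 UMI. As sequenced the shares were 9.29% and 35.7%. The sort held no cell type that lacks these genes, so free RNA was read from near-empty droplets of ranks 45000 to 90000, where Traf1 was at 10.3 CPM in the neonatal library against 54.3 CPM in the adult one. Free RNA at that level would give 0.0578% of neonatal and 0.499% of adult cells a Traf1 UMI before thinning. Both values were below the shares measured as sequenced and at 2000 UMIs. The neonatal UMIs were held by few cells, with a maximum of 13 in a cell, and the adult maximum was 42. Cells with at least 2 Traf1 UMIs at equal depth made up 0.289% of the neonatal and 2.94% of the adult cells.

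Over all cells, transcripts of the 4 subunits were at nearly the same level in both libraries except for Relb. Nfkb1 (chr3:135584655-135691547, minus strand), which encodes the precursor of p50, was at 157 CPM in the neonatal and 148 CPM in the adult cells, a log2 ratio of -0.09 (-0.16 to -0.02). Rel (chr11:23736847-23770970, minus strand), which encodes c-Rel, the subunit prominent in mature B cells, was at 572 and 534 CPM, a log2 ratio of -0.10 (-0.13 to -0.06). Both ratios turned positive, at 0.06 and 0.05, with scaling by the median of ratios, so their direction depends on the scale. Nfkb2 (chr19:46304320-46312385, plus strand), the precursor of p52 in the alternative pathway, was at 63.2 and 61.6 CPM (-0.04, -0.14 to 0.07; 0.11 with that scaling). Relb (chr7:19606217-19629438, minus strand), the partner of p52, was at 59.7 CPM in the neonatal and 43.5 CPM in the adult cells, a log2 ratio of -0.46 (-0.57 to -0.34) that was negative in all 14 alternative settings. At equal depth 12.2% of neonatal and 8.78% of adult cells held a Relb UMI, whereas the shares for Nfkb1 (24.1% and 23.0%), Nfkb2 (12.5% and 11.9%) and Rel (61.5% and 60.0%) were close.

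Among the inhibitors Nfkbia was lower in the adult library, Nfkbie less so, and Nfkbiz and Tnfaip3 were within a small difference. Nfkbia (ENSMUSG00000021025, chr12:55489410-55492647, minus strand), which encodes IkB-alpha, the inhibitor that is resynthesized within a short time of activation, was counted 5790 times among the neonatal and 7661 times among the adult cells. Its level was 353 CPM and 221 CPM, a log2 ratio of -0.67 (-0.72 to -0.62), and the adult level was 62.7% of the neonatal level. A Nfkbia UMI was present at equal depth in 44.8% of neonatal and 33.6% of adult cells, against 1.86% and 2.37% that free RNA would give before thinning. Nfkbie (chr17:45555703-45563169, plus strand), which encodes IkB-epsilon, was at 62.9 and 51.6 CPM, a log2 ratio of -0.29 (-0.40 to -0.17), with a UMI in 9.82% and 9.499% of cells. Tnfaip3 (chr10:19000910-19015657, minus strand), which encodes the ubiquitin-editing enzyme A20, was at 67.7 and 67.8 CPM, a log2 ratio of 0.00 (-0.10 to 0.11). Nfkbiz (chr16:55811375-55838899, minus strand), which encodes the nuclear protein IkB-zeta, was at 37.4 and 32.8 CPM, a log2 ratio of -0.19 (-0.33 to -0.04).

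Birc3 (chr9:7848699-7873186, minus strand), which encodes cellular IAP2, a ubiquitin ligase that binds the TRAF1-TRAF2 complex, was lower in the adult library, opposite to Traf1. It was at 164 CPM in the neonatal and 123 CPM in the adult cells, a log2 ratio of -0.42 (-0.49 to -0.35). A Birc3 UMI was present at equal depth in 28.4% of neonatal and 21.05% of adult cells. Over all cells Nfkbia, Nfkbie, Relb and Birc3 were lower in the adult library in all 14 alternative settings.

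Droplets holding UMIs of at least 2 markers of another cell type numbered 39 in the neonatal library against 46 in the adult one. Of these, 16 and 12 held macrophage markers and 14 and 16 endothelial ones. Pecam1, at 137 and 116 CPM over all cells, counted as 1 endothelial marker. Markers were counted as sequenced, so deeper droplets reached 2 more readily. The droplets with markers of other cell types mattered most for Nfkbiz. In the neonatal library they held 3.61% of all UMIs but 27.9% of the Nfkbiz UMIs, with Nfkbiz at 289 CPM in them and 28.0 CPM in the other cells. In the adult library they held 5.45% of its UMIs, at 48.1 CPM against 32.2 CPM. Without these droplets the log2 ratio of Nfkbiz turned from -0.19 to 0.20 (0.04 to 0.37). Traf1 and Nfkbia were also higher in the neonatal droplets with such markers. Traf1 was at 87.7 CPM in them and 22.0 CPM in the other neonatal cells, and Nfkbia at 834 and 335 CPM. The log2 ratio without the droplets was 2.28 (2.12 to 2.44) for Traf1 and -0.60 (-0.65 to -0.55) for Nfkbia, so both differences were as large or nearly as large without them. The other 7 genes moved by little, with Relb at -0.46 and Birc3 at -0.40.

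Because the cells of the libraries differed in depth, in immediate-early transcripts and in subset transcripts, the levels were also read within groups set by these. The ranges of depth and of immediate-early UMIs were wide and the highest had no upper limit, so they matched the cells only in part. The depth and immediate-early ranges and the S100a6 and Ly6a groups were chosen after the data had been seen. Traf1 was higher in the adult library in each depth range. In cells with 2000 to 4000 UMIs Traf1 had 0 UMIs in 124 neonatal cells and was at 33.4 CPM in 728 adult cells. That adult level was 4.86-fold the level that 3 counts over the neonatal cells would give. The exact interval of the log2 ratio began at 1.95 and had no upper limit. In cells with 4000 to 8000 UMIs Traf1 was at 9.54 and 66.8 CPM, a log2 ratio of 2.81 (2.46 to 3.17). In deeper cells it was at 40.5 and 129 CPM, a log2 ratio of 1.67 (1.503 to 1.84). Within both libraries the Traf1 level was higher in deeper cells. Nfkbia was lower in the adult library in the 3 ranges, with log2 ratios of -0.66, -0.58 and -0.71.

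Immediate-early genes respond within minutes to stimulation and also to tissue digestion and sorting. The 14 immediate-early and heat shock genes listed had ratios below 0 for 13 genes, with a median of -0.58. Their summed level was 8298 CPM in the neonatal and 6370 CPM in the adult cells. Of the 14, 3 were at least 2-fold higher in the neonatal library, Atf3, Hspa1a and Hspa1b, against 3.96% of all genes. As a group the 14 genes were thus lower in the same library as Nfkbia, and their part in its ratio was not tested. In cells with at most 10 immediate-early UMIs per 2000, Nfkbia was at 259 CPM in the neonatal library against 168 CPM in the adult one (-0.63, -0.73 to -0.52). In cells with more than 16 it was at 456 and 311 CPM, a log2 ratio of -0.55. Nfkbia was therefore higher in cells with more of these transcripts in both libraries, and lower in the adult library within each range. The middle range gave -0.49. Traf1 had log2 ratios of 2.34, 2.80 and 1.87 in the low, middle and high ranges.

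Transcript classes were set at equal depth from Cr2 and Fcer2a, which encode the CD21 and CD23 proteins of follicular B cells, and Vpreb3, a transcript of immature B cells. Cells with a Cr2 or Fcer2a UMI made up 585 neonatal and 1929 adult cells. Traf1 was at 18.1 CPM in these neonatal cells and 101 CPM in these adult cells, a log2 ratio of 2.48 (2.16 to 2.83). In cells with Vpreb3 and neither of the others, 720 neonatal and 451 adult cells, it was at 8.86 and 79.5 CPM (3.16, 2.70 to 3.66). In cells with none of the 3 transcripts it was at 38.7 and 122 CPM (1.66, 1.48 to 1.85). With classes set from UMIs as sequenced, the log2 ratio was 2.21 in the Vpreb3 class and 0.92 in cells with none of the 3, both lower by over 1.5-fold. The class with a Cr2 or Fcer2a UMI was itself uneven in the adult library. Adult cells with Cr2 alone were at 130 CPM (119 to 142) and those with Fcer2a alone at 85.3 CPM (79.8 to 91.2). The neonatal values were 12.6 CPM (5.08 to 26.0), on 7 UMIs, and 18.4 CPM (14.2 to 23.6), with overlapping intervals. A droplet without a UMI may still express the gene, so cells with none of the 3 mix cell states.

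Cells with at least 3 of 8 B1 transcripts, 98 neonatal and 115 adult cells, had the highest Traf1 level of the classes named here in each library, 65.6 CPM and 184 CPM, a log2 ratio of 1.49 (1.17 to 1.83). These cells were also the deepest, with a mean of 15085 UMIs per neonatal and 18060 per adult cell, against 6737 and 7920 in the Vpreb3 class and 9311 and 11180 in cells with none of the 3. The part of depth in this order was not tested. Over all cells the 8 transcripts summed to 1696 CPM in the neonatal and 1071 CPM in the adult library. Most of this sum came from Plac8, at 1210 and 815 CPM, and Ahnak, at 360 and 148 CPM. Of the 8 log2 ratios 6 were below 0 and 2 above, Itgam at 0.47 (0.14 to 0.82) and Spn at 0.34 (0.03 to 0.66). Nfkbia was lower in the adult library in every class, with log2 ratios of -0.46 to -0.77. Nfkbie, lower over all cells, was at 0.47 (0.07 to 0.88) in cells with B1 transcripts, Tnfaip3 at 0.41 (0.02 to 0.80) and Relb at 0.16 (-0.34 to 0.67). Rel also differed in sign between classes. It was at -0.30 (-0.35 to -0.24) in cells with a Cr2 or Fcer2a UMI and 0.20 (0.11 to 0.28) in the Vpreb3 class. In cells with none of the 3 transcripts Rel was at -0.17 (-0.22 to -0.11). Nfkbiz differed in sign between classes, from -0.89 in cells with B1 transcripts to 0.51 in the Vpreb3 class. It was at 1.65 in cells with Cr2 alone, where the neonatal level rested on 5 UMIs. These class values include the droplets with markers of other cell types, which held 27.9% of the neonatal Nfkbiz UMIs. Class values of Nfkbiz without those droplets were not computed.

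**Figure D2:**
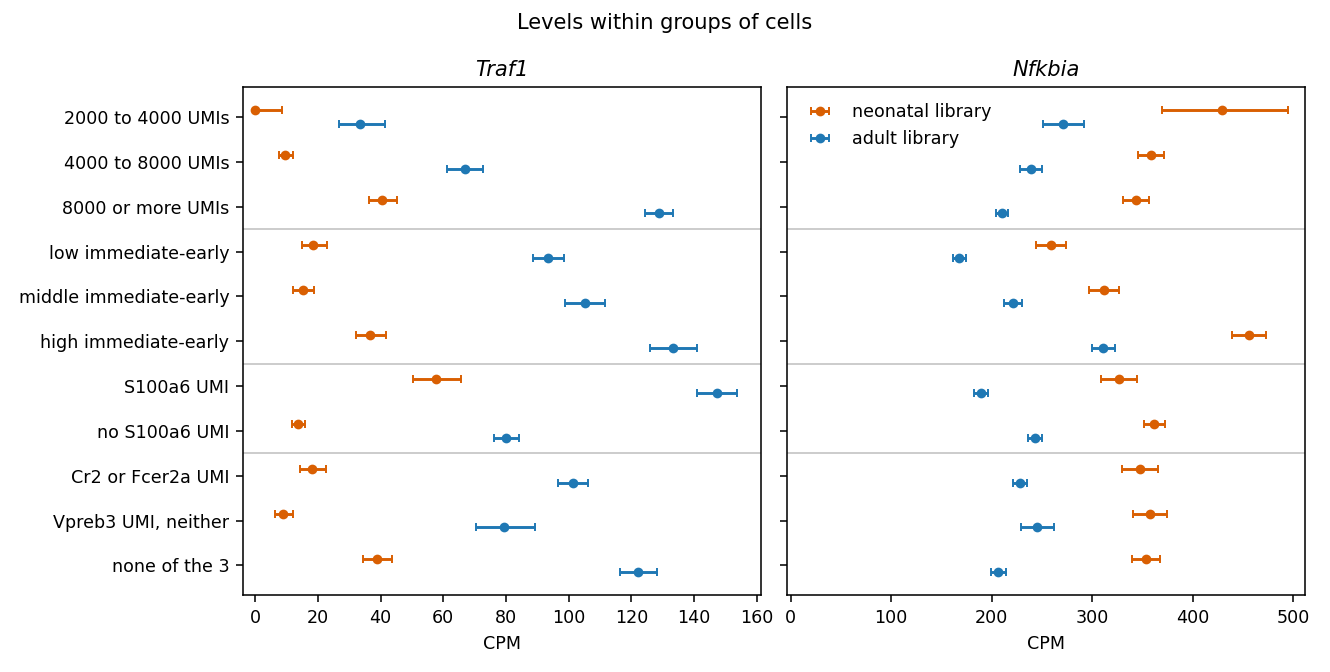
Level of Traf1 (left) and Nfkbia (right) in CPM within groups of cells of the neonatal (orange) and adult (blue) library set by UMIs per cell, summed immediate-early UMIs per 2000, an S100a6 UMI and transcript class; bars are exact 95% Poisson intervals for counting error. Traf1 is higher and Nfkbia lower in the adult library in every group drawn, with Traf1 at 8.86 against 79.5 CPM in the Vpreb3 class.

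The other subunits, inhibitors and regulators of NF-kB were read from a list of 8 genes, with a median log2 ratio of -0.11. Of these, 0 were 2-fold higher in either library, against 3.25% of all genes for the adult and 3.96% for the neonatal library. Rela, the subunit of the canonical dimer, was at 0.11 (-0.04 to 0.25). Bcl3, an atypical IkB protein, was at 38.3 CPM in the neonatal and 22.2 CPM in the adult cells, a log2 ratio of -0.79 (-0.94 to -0.63). Of 23 receptors, adaptors and kinases above NF-kB, 21 had at least 50 UMIs, with a median of -0.08. Again 0 were 2-fold higher in either library, and a count of 0 in lists this short is near the shares of all genes. Ikbkb, the catalytic kinase of the canonical pathway, was at 212 and 148 CPM (-0.51), and Tnfrsf13c, the receptor for BAFF, at 118 and 116 CPM (-0.03). Tnfrsf1a, with 40 neonatal and 7 adult UMIs, and Ltbr, with 3 and 1, were below the minimum.

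The difference of Traf1 was not seen in the other members of its family. The 6 other TRAF genes had log2 ratios between -0.48 for Traf6 and 0.14 for Traf4. Traf2, whose protein binds TRAF1 directly, was at 24.8 CPM in the neonatal and 22.3 CPM in the adult cells, and Traf3, a brake on the alternative pathway, at 34.9 and 31.2 CPM. In the TRAF family 1 of 7 genes was 2-fold higher in the adult library, against 3.25% of all genes. This was Traf1, whose ratio had chosen the list, so the count says nothing about the family.

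Other targets of NF-kB went both ways. Of 22 listed, 21 had at least 50 UMIs, with a median log2 ratio of -0.20, 8 above and 13 below 0. The 2 genes at least 2-fold higher in the adult library were Bcl2a1d, which encodes an A1 survival protein, at 19.0 and 48.0 CPM (1.34, 1.16 to 1.52), and Fas, the death receptor, at 1.95 and 5.83 CPM (1.58, 1.04 to 2.17). The Bcl2a1 genes are near-identical copies whose reads may be split between them, so the value of Bcl2a1d is uncertain. Bcl2a1b was at 68.0 and 123 CPM (0.85, 0.75 to 0.95). Bcl2a1a, with 25 neonatal and 11 adult UMIs, was below the minimum. The costimulatory genes Cd80 and Cd86 were higher in the adult library by 0.96 and 0.84 on the log2 scale. The 3 genes at least 2-fold higher in the neonatal library were Irf4, a transcription factor of activated B cells, at 192 and 68.0 CPM (-1.58 to -1.42), Ccr7, a chemokine receptor for lymphoid homing, at 1103 and 471 CPM (-1.23), and Icam1, an adhesion molecule, with 779 and 727 UMIs (-1.18). Both directions were therefore present among the targets, against 3.25% and 3.96% of all genes.

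**Figure D3:**
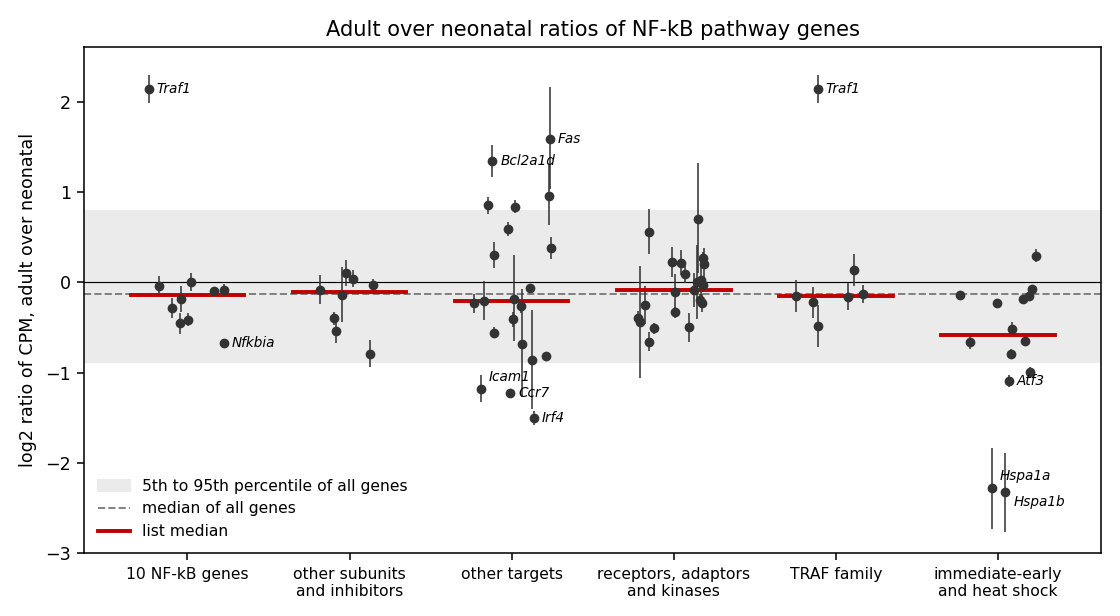
Log2 ratio of CPM, adult over neonatal, for the tested genes of each list (points, with exact 95% intervals for counting error), the list medians (red lines) and the median and 5th to 95th percentile of all tested genes (dashed line and band). Traf1, drawn in the first list and again in the TRAF family, lies at 2.14, above the other genes, whereas the list medians of the NF-kB groups lie between -0.20 and -0.08.

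Over single cells the correlations between the 10 genes were weak at equal depth. Pearson correlations of log2(1 + UMIs) over the cells of a library, each thinned to 2000 UMIs, had a median of 0.013 over 45 pairs in the neonatal library against 0.016 in the adult one, and ranged from -0.039 to 0.125 and from -0.024 to 0.065. All cells of a library share its preparation, and correlations this weak in sparse counts are no finding. Traf1 averaged 0.028 UMIs per neonatal and 0.167 per adult cell at that depth. Counts this few hold correlations near 0, so a lack of relation cannot be read from them either. Cells with UMIs of both genes were more than the product of the 2 shares gives for 29 of 45 neonatal and 33 of 45 adult pairs. As sequenced, the median over the 9 pairs with Traf1 was 0.197 in the neonatal library against 0.346 in the adult one, values that share the depth of each cell, and at equal depth it was 0.014 and 0.019. The highest neonatal pair, Nfkbia with Nfkbiz at 0.125, was at 0.063 without the 39 droplets with markers of other cell types. Leaving these droplets out of the values per cell was a choice made after the data had been seen. The neonatal correlation of Traf1 with Nfkbiz was 0.076 and 0.008 without these droplets. Nfkbia with Tnfaip3, both feedback inhibitors, was at 0.092 in the neonatal library against 0.056 in the adult one, and 0.082 and 0.059 without them.

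**Figure D4:**
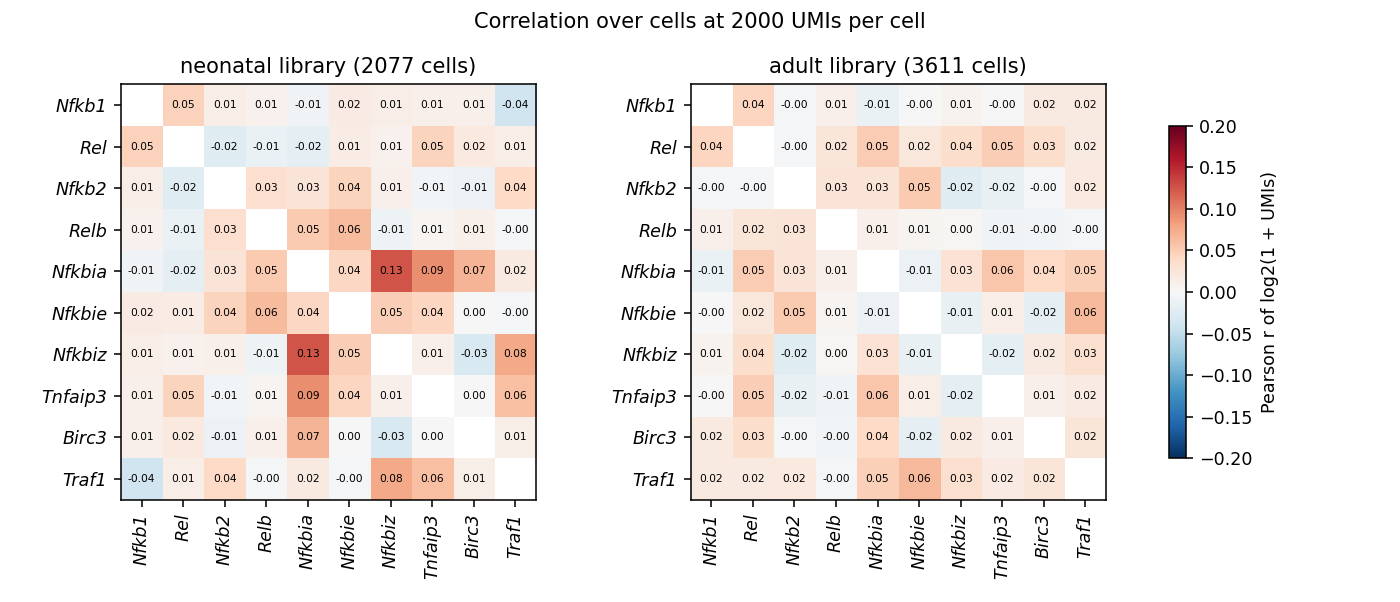
Pearson correlation over cells of log2(1 + UMIs), at 2000 UMIs per cell, for each pair of the 10 genes in the neonatal (left) and adult (right) library, on a color scale from -0.20 to 0.20 with the value in each square. Values run from -0.039 to 0.125 in the neonatal and from -0.024 to 0.065 in the adult library, and the row of Traf1 reaches at most 0.076 and 0.065.

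Adult cells with a Traf1 UMI held slightly more of the other NF-kB transcripts, and the few neonatal ones went both ways. At equal depth, adult cells with Traf1 had UMIs of a mean of 2.03 of the 9 other genes (SD 1.25, 463 cells) against 1.81 in cells without it (SD 1.14, 3148 cells), and neonatal cells 2.29 (SD 1.18, 52 cells) against 2.10 (SD 1.21, 2025 cells). The adult difference was widest for Nfkbie, at 78.8 CPM in cells with and 48.0 CPM in cells without Traf1, a log2 ratio of 0.72 (0.33 to 1.09). Nfkbia was at 289 and 230 CPM (0.33, 0.14 to 0.52), and the intervals of the 7 other genes spanned 0. Among the 52 neonatal cells Tnfaip3 was at 163 against 68.9 CPM, on 17 UMIs. Nfkb1 was at 76.9 against 150 CPM (-0.96, -2.18 to 0.03) and Nfkbie at a log2 ratio of -0.22. Neonatal Nfkbia was at 0.34 (-0.11 to 0.75), and at -0.08 without the droplets that held markers of other cell types. Neonatal Nfkbiz, at 96.2 against 30.4 CPM on 10 UMIs, was at 31.9 against 25.9 CPM without the droplets that held markers of other cell types. The subset transcript Vpreb3 was lower in cells with Traf1 in both libraries, by a log2 ratio of -1.03 in the neonatal library against -0.79 in the adult one.

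The genes most like Traf1 over cells were outside the NF-kB list. Likeness was the same correlation, taken over 2830 genes in the neonatal library against 3959 in the adult one with at least 200 UMIs at that depth, where the 95th percentile of all genes was 0.040 and 0.035. S100a6, a calcium-binding protein, came highest in both libraries, at 0.184 in the neonatal and 0.182 in the adult cells. It was followed in the neonatal library by Lmna, Ly6a, Junb and Prdx1, at 0.132 to 0.095, and in the adult library by Ly6a, Ccnd2, Vim and Itgb1, at 0.128 to 0.114. Of each 5 genes, S100a6 and Ly6a, which encodes Sca-1, were the 2 in common. Ccnd2, at 0.123 in the adult library, was itself on the list of other NF-kB targets. Further ranks of that list were not read. Nfkbiz fell below the minimum and was not ranked. Neonatal Traf1 was itself below that minimum, at a mean of 0.028 UMIs per cell. Its neonatal correlates therefore rest on 52 cells with a Traf1 UMI. Thinned Traf1 also correlated with the log2 UMIs of each cell, at 0.145 (neonatal) and 0.137 (adult). Among the genes named here as most like Traf1, only S100a6 was higher. How far cell depth set these ranks was not tested. Of the ranked NF-kB genes the closest were Tnfaip3 at rank 53 in the neonatal library, and Nfkbie at rank 39 and Nfkbia at rank 90 in the adult library. Without droplets that held markers of other cell types S100a6 was at 0.161 in the neonatal library against 0.184 in the adult one.

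S100a6 was taken up here because its correlation with Traf1 was the highest in these same cells. A higher share with S100a6 among cells with Traf1 was fixed by that choice, so the shares are a description. An S100a6 UMI was present in 42.3% (28.7 to 56.8%) of neonatal cells with Traf1 and 11.95% (10.6 to 13.4%) of those without it. In adult cells the shares were 45.4% (40.8 to 50.02%) and 22.0% (20.6 to 23.5%). Cells with S100a6 made up 12.7% of the neonatal and 25.01% of the adult cells, so its share differed between the libraries as well. In cells with S100a6 Traf1 was at 57.6 CPM in the neonatal library against 147 CPM in the adult one (1.35, 1.16 to 1.56), and in cells without it at 13.6 and 80.1 CPM (2.56, 2.33 to 2.80). Split by Ly6a, found in 11.8% of neonatal and 46.5% of adult cells, the log2 ratios were 1.44 with and 2.05 without the transcript. The adult Traf1 level was thus higher both in cells with and in cells without either transcript. The part of cell depth in these splits was not tested.

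The highest correlates of Nfkbia were read in the same way. Its highest correlate in both libraries was Dusp2, a phosphatase of MAP kinases, at 0.135 in the neonatal and 0.155 in the adult cells. In the neonatal library Gadd45b, Cd69, Nfkbid and Zfp36l1 followed, and in the adult library Egr1, Zfp36, Ier2 and Jund. With the sum of the 14 immediate-early and heat shock genes Nfkbia correlated at 0.143 and 0.139, and Traf1 at 0.061 and 0.046.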

How the data were processed

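Heart B cells were sequenced with 10x Genomics Chromium 3′ chemistry, 1 library per age, each from 6 mice in 2 tubes of 3 hearts. The authors aligned reads to mm10 and deposited unfiltered UMI counts per gene and droplet, not normalized, made with Cell Ranger (3.0.2 per the file headers). Cells followed the limits above and no doublet caller was run. CPM is the UMIs of a gene over all gene UMIs of the cells. Ratios set the adult over the neonatal level, and their intervals are exact binomial ones conditional on the summed UMIs. Levels have exact Poisson intervals and shares exact Clopper-Pearson intervals. Cells were thinned to 2000 UMIs for shares and correlations. Genes needed 50 UMIs over both libraries. Named genes were the 10, listed pathway genes past 2-fold with counts for the rest, and the 5 genes most like Traf1 per library; other listed genes, S100a6 and Ly6a groups and correlates of Nfkbia were chosen after their values were seen. The genes and lists were chosen with earlier results of these data known. Gene positions are from GENCODE M21, in which 99.6% of gene identifiers were found. The calculations were tested on simulated data. The tools were scipy 1.17.1, numpy 2.4.6, matplotlib 3.10.9 and pandas 2.3.3 under Python 3.11.15. An item withheld for evaluation is not reported here.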

Additional observations from a re-analysis of the deposited data

How the results depend on the processing

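Traf1 stayed higher in the adult library in all 14 alternative settings, from a log2 ratio of 0.96 to 2.56. The 5% mitochondrial limit left 60 neonatal and 156 adult cells and gave the 0.96. Of the 10 genes, 0 were then 2-fold higher in adult and 4 in neonatal cells, and the shares of all genes were not computed. At that limit the median was -0.37 for the 9 other genes. Medians were -0.58, -0.29 and 0.13 for the other subunits and inhibitors, the receptors, adaptors and kinases, and the TRAF family. Traf1 was at 2.40 without the 5% deepest droplets, 2.39 as a mean over cells, 2.56 thinned to 2000 UMIs and 1.98 in cells with a Y-linked and no Xist UMI (1279 neonatal, 2819 adult). Scaling by the median of ratios gave -0.037 for the 9 other genes, 0.040 for the other subunits and inhibitors and -0.053 for the other targets, which were also at -0.069 without droplets holding markers of other cell types, -0.075 without the deepest droplets, -0.060 as a mean over cells and -0.028 thinned. A fold of 1.5 counted 1 gene higher in the neonatal library. Traf1 shares, neonatal and adult, were 5.12% and 24.97% at 4000 UMIs, 9.29% and 35.7% as sequenced, and 3.59% and 16.9% in cells with at least 5000 UMIs. The median correlation of Traf1 with the others as sequenced was 0.197 and 0.346. With classes set as sequenced, Traf1 was at 2.21 in the Vpreb3 class and 0.92 in cells with none of the 3, and with at least 5000 UMIs at 3.09 in cells with Cr2 or Fcer2a and 2.44 in the Vpreb3 class. Apart from the smaller number of cells where given, the cause was not tested. No paired analysis was possible because there was 1 library per age. Few UMIs make wide intervals, and none covers differences between mice or library preparations.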
